A study of Mus musculus with 7 samples.

Results

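Counts on 7 genes that encode the peptide hormones of the pancreatic islet were described across every library of the series. The genes were Ins1, Ins2, Iapp, Gcg, Sst, Ppy and Pyy, taken by name from a table of 48440 genes, and all 7 were found in it. They were chosen with earlier results of these data known. The islets came from female NOD.hALOX12 mice, a nonobese diabetic strain in which the coding region of mouse Alox15 had been exchanged for that of human ALOX12 under the mouse regulatory elements, in every tissue and in both groups. Treated mice received VLX-1005, an inhibitor of the human enzyme 12-lipoxygenase, by mouth at 30 mg/kg per day over 4 weeks (3 libraries), and the others received vehicle for the same time (4 libraries). The dosing fell in the prediabetic phase of this strain, whose islets are infiltrated by immune cells, and islets were taken at 10 weeks of age. Islets were digested out of the pancreas with collagenase, picked by hand and kept in culture overnight before RNA was taken, and the RNA was made into strand-specific libraries of polyadenylated messages. No label ties a library to a mouse of its own, so every p value measures the spread between these libraries, part of which may be technical.

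The islet holds several endocrine cell types, and each is known by the hormone it stores. Beta cells make insulin, which lowers blood glucose, and mice carry 2 insulin genes, Ins1 and Ins2. The same cells release islet amyloid polypeptide, the product of Iapp, from the same granules. Alpha cells make glucagon, which raises blood glucose and is cut from the product of Gcg, delta cells make somatostatin (Sst), which restrains the release of the other hormones, and the cells named for pancreatic polypeptide make Ppy. Peptide YY (Pyy) belongs to the same family as pancreatic polypeptide and is made in several islet cell types and in the gut. In autoimmune diabetes beta cells are the ones destroyed. In intact islets these messages are among the most abundant that the tissue makes.

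Positions are those of the GENCODE M21 annotation of the mm10 genome, and identifiers are those of the deposited table. Ins1 (ENSMUSG00000035804.4) lies on chromosome 19 from 52264297 to 52265476 and has 1062 bp of annotated exons. Ins2 (ENSMUSG00000000215.11) lies on chromosome 7 from 142678656 to 142743381 with 1312 bp of exons, a span that includes exons annotated well upstream of the insulin coding part. Iapp (ENSMUSG00000041681.2) lies on chromosome 6 from 142298423 to 142303961 with 974 bp of exons, inside an intron of the transporter gene Slco1a5. Gcg (ENSMUSG00000000394.15) lies on chromosome 2 from 62474530 to 62483650 with 1494 bp of exons, and Sst (ENSMUSG00000004366.3) on chromosome 16 from 23889573 to 23890958 with 721 bp. Ppy (ENSMUSG00000017316.13) and Pyy (ENSMUSG00000017311.15) are neighbours on chromosome 11, from 102099930 to 102101319 with 500 bp of exons and from 102106676 to 102107832 with 631 bp. All 7 are protein-coding, and no exon of another gene lies over their exons on either strand. The exon lengths of Ins1 and Sst come from a later version of their gene models than the one counted.

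The 2 insulin genes are near copies of each other, so their coding sequences decide how far a read can be given to only 1 of them. They are shown here 5′ to 3′ from the start codon, as annotated in GENCODE M21, with every base that differs between them, or that has no partner in the other, in capitals: bases 1 to 270 of Ins1, bases 1 to 276 of Ins2, and the run of 56 bases that follows in both.
Ins1: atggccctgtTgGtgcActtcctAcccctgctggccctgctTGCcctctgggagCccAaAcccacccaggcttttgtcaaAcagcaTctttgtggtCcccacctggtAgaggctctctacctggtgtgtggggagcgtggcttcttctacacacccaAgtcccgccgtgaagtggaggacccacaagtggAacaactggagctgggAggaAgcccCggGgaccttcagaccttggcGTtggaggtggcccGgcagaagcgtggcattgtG
Ins2: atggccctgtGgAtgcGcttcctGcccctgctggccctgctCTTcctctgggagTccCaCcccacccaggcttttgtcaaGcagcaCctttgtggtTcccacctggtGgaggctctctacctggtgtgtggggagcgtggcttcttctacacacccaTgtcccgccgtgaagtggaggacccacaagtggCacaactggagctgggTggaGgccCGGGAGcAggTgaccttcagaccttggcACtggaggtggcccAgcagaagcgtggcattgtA
Shared run: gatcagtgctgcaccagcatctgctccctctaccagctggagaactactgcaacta
The coding sequence of Ins1 has 327 bases (108 codons before the stop) and that of Ins2 has 333 bases (110 codons before the stop). Aligned over 333 positions, 302 (90.7%) were identical, 25 were substituted and 6 lay opposite a gap. The longest identical run had 56 bases, from base 271 to base 326 of Ins1 and from base 277 to base 332 of Ins2, which leaves only the last base of the stop codon after it. Over whole transcripts, 50 of the 1033 distinct stretches of 30 bases in Ins1 (4.84%) and 50 of 1434 in Ins2 (3.49%) occurred in both genes. At 50 bases the numbers were 7 of 1013 (0.691%) for Ins1 and 7 of 1504 (0.465%) for Ins2. No stretch of either length was shared with a gene other than the 2 insulin genes, and none in Iapp, Gcg, Sst, Ppy or Pyy was shared with any gene. The sources used here give neither the read length nor what was done with reads that match both insulin genes, so counts from the shared stretches are uncertain as to the gene they came from.

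The hormone genes held few of the counts. Libraries held between 1024586 and 1430785 counts, and the 7 hormone genes together took 811, 442 and 359 of them in the VLX-1005 libraries and 675, 597, 515 and 653 in the vehicle libraries, 4052 in all. Each of the 7 genes had counts in every library. That is 0.0567%, 0.0431% and 0.0281% of all counts with VLX-1005, against 0.0576%, 0.0457%, 0.0448% and 0.0498% with vehicle. VLX-1005 replicate 3 had the lowest share, and the other 2 VLX-1005 libraries lay near or within the vehicle range. Protein-coding genes over which no exon of another gene is annotated on the other strand (16433 of the 48440 genes), the class to which all 7 hormone genes belong, took only 2.63% to 3.31% of the counts with VLX-1005 and 2.62% to 2.82% with vehicle. Within that class the hormone genes took 1.85%, 1.30% and 1.07% with VLX-1005, against 2.04%, 1.67%, 1.66% and 1.90% with vehicle. The strand setting used for counting is not given in the sources used here, and its part in the low share was not tested.

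Levels per length were compared within the class of protein-coding genes with no exon on the other strand, as CPM (counts relative to the library total, scaled with the TMM factors of edgeR) divided by the exon length in kb. Gcg averaged 111 ± 33.5 CPM per kb (SD, n = 7 libraries) and ranked 5th of the 16433 genes, and Ins2 averaged 108 ± 24.4 CPM per kb and ranked 6th. Ins1 followed with 79.7 ± 17.7 CPM per kb (8th) and Iapp with 40.7 ± 11.8 CPM per kb (22nd). Sst averaged 33.0 ± 10.7 CPM per kb (34th), Ppy 29.7 ± 10.9 CPM per kb (39th) and Pyy 5.81 ± 2.86 CPM per kb (256th). Of the 16433 genes, 8751 had a count in any library. So the hormone genes with low total counts still stood near the top of their own class. The order of Gcg over Ins2 held in only 4 of 7 libraries and that of Sst over Ppy also in 4 of 7, which did not separate either pair. Ins2 was above Ins1, and Ins1 above Iapp, in 7 of 7 libraries on this scale, and Iapp was above Sst in 6 of 7. Ppy and Pyy were the only neighbours in this order whose ranges did not overlap.

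VLX-1005 was then compared with vehicle, which asks whether inhibition of the lipoxygenase changed the hormone messages. None of the 7 genes passed the test. Ins2 had the largest log2 fold change relative to its error, Gcg had the largest spread between libraries, and Iapp and Sst had nearly equal means in the groups. In whole-islet RNA, fewer cells of a type and less RNA per cell cannot be told apart. CPM values below are TMM-scaled, and counting intervals of single libraries (exact Poisson, 95%) cover counting error only.

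Ins2 had 210, 134 and 104 counts in the VLX-1005 libraries and 197, 166, 168 and 226 counts in the vehicle libraries. Scaled, that was 146, 130 and 82.2 CPM with VLX-1005 against 167, 130, 156 and 180 CPM with vehicle. The lowest value belonged to VLX-1005 replicate 3. VLX-1005 replicate 1 lay within the vehicle range and replicate 2 just inside its lower end (130.4 against 130.0 CPM), so the groups overlapped. The means were 119 ± 33.1 CPM with VLX-1005 and 158 ± 21.3 CPM with vehicle (SD, n = 3 and 4). The log2 fold change was −0.41 ± 0.21 (SE), with a 95% interval of −0.85 to 0.04, that is between 0.554 and 1.03 times the vehicle level, and an adjusted p of 0.325 (edgeR, unadjusted p = 0.0712). An exact permutation test of the CPM over the 35 ways to split 7 libraries into 3 and 4 gave p = 0.143, where the smallest possible p is 0.0286. Without VLX-1005 replicate 3 the log2 fold change was −0.21, and with the ribosomal RNA share as a covariate it was −0.83 (edgeR adjusted p = 0.602). That share was 2.55%, 3.14% and 2.15% of counts with VLX-1005 and 1.69% to 2.11% with vehicle, all 3 above all 4.

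Ins1 had 128, 86 and 72 counts with VLX-1005 and 121, 87, 87 and 140 counts with vehicle. On the CPM scale these were 88.8, 83.7 and 56.9 with VLX-1005 against 103, 68.2, 80.8 and 112 with vehicle. VLX-1005 replicates 1 and 2 lay inside the vehicle range and VLX-1005 replicate 3 below it. Ins1 averaged 76.5 ± 17.1 CPM with VLX-1005 and 90.8 ± 19.9 CPM with vehicle, and its log2 fold change was −0.25 ± 0.23 (95% interval −0.75 to 0.25, edgeR adjusted p = 0.599; −0.65 with the ribosomal RNA share as a covariate, adjusted p = 0.804). Iapp, whose product forms the amyloid of human islets, had 62, 58 and 29 counts with VLX-1005 and 58, 50, 31 and 48 counts with vehicle. Its levels were 43.0, 56.5 and 22.9 CPM with VLX-1005 against 49.2, 39.2, 28.8 and 38.2 CPM with vehicle, so that the VLX-1005 libraries held both the highest and the lowest value. Iapp averaged 40.8 ± 16.9 CPM with VLX-1005 and 38.9 ± 8.35 CPM with vehicle. Its log2 fold change was 0.06 ± 0.31 (95% interval −0.61 to 0.73, edgeR adjusted p = 0.942). The sign turned without VLX-1005 replicate 2 (−0.23) and without vehicle replicate 3 (−0.06). It also turned with the ribosomal RNA share as a covariate (−0.62, edgeR adjusted p = 0.839).

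Gcg, the glucagon gene, had 339, 110 and 128 counts with VLX-1005 and 247, 241, 171 and 197 counts with vehicle. On the CPM scale these were 235, 107 and 101 with VLX-1005 against 210, 189, 159 and 157 with vehicle (VLX-1005 replicate 1 was highest of all, and VLX-1005 replicates 2 and 3 were the 2 lowest). The counting interval of VLX-1005 replicate 1 (304 to 377 counts) did not reach that of VLX-1005 replicate 2 (90.4 to 133 counts). Gcg averaged 148 ± 75.7 CPM with VLX-1005 and 178.5 ± 25.3 CPM with vehicle, with a log2 fold change of −0.26 ± 0.28 (95% interval −0.88 to 0.35, edgeR adjusted p = 0.648). That value depended on single libraries: leaving out VLX-1005 replicate 1 gave −0.78 ± 0.20 (edgeR adjusted p = 0.0573), whereas leaving out replicate 2 or replicate 3 of that group gave −0.08 or −0.06.

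Sst had 32, 37 and 15 counts with VLX-1005 and 30, 27, 32 and 25 counts with vehicle, which scaled to 22.2, 36.0 and 11.9 CPM with VLX-1005 against 25.5, 21.2, 29.7 and 19.9 CPM with vehicle. The vehicle libraries lay close together, and the VLX-1005 libraries reached both above and below them. Sst averaged 23.4 ± 12.1 CPM with VLX-1005 and 24.1 ± 4.45 CPM with vehicle. Its log2 fold change was −0.06 ± 0.36 (95% interval −0.84 to 0.72, edgeR adjusted p = 0.955), 0.25 without VLX-1005 replicate 3, and −1.05 with the ribosomal RNA share as a covariate (edgeR adjusted p = 0.775). Ppy had 31, 13 and 9 counts with VLX-1005 and 17, 19, 24 and 14 counts with vehicle, which scaled to 21.5, 12.7 and 7.11 CPM with VLX-1005 against 14.4, 14.9, 22.3 and 11.2 CPM with vehicle. Only VLX-1005 replicate 3 lay outside the vehicle range. Ppy averaged 13.8 ± 7.25 CPM with VLX-1005 and 15.7 ± 4.70 CPM with vehicle. Its log2 fold change was −0.16 ± 0.41 (95% interval −1.07 to 0.74, edgeR adjusted p = 0.876), and 0.14 without VLX-1005 replicate 3.

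Pyy had 9, 4 and 2 counts with VLX-1005 and 5, 7, 2 and 3 counts with vehicle, near the 3 counts (2.08 to 2.92 CPM) that a count of 0 allows in these libraries. It did not pass the filter on low counts. Fitted without that filter, its log2 fold change was 0.14 ± 0.78 (95% interval −1.40 to 1.67, edgeR adjusted p = 0.956), and the exact permutation p of its CPM was 0.8286. That interval runs from 0.380 to 3.19 times the vehicle level, and a difference within it was not detectable at this depth.

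**Figure D1:**
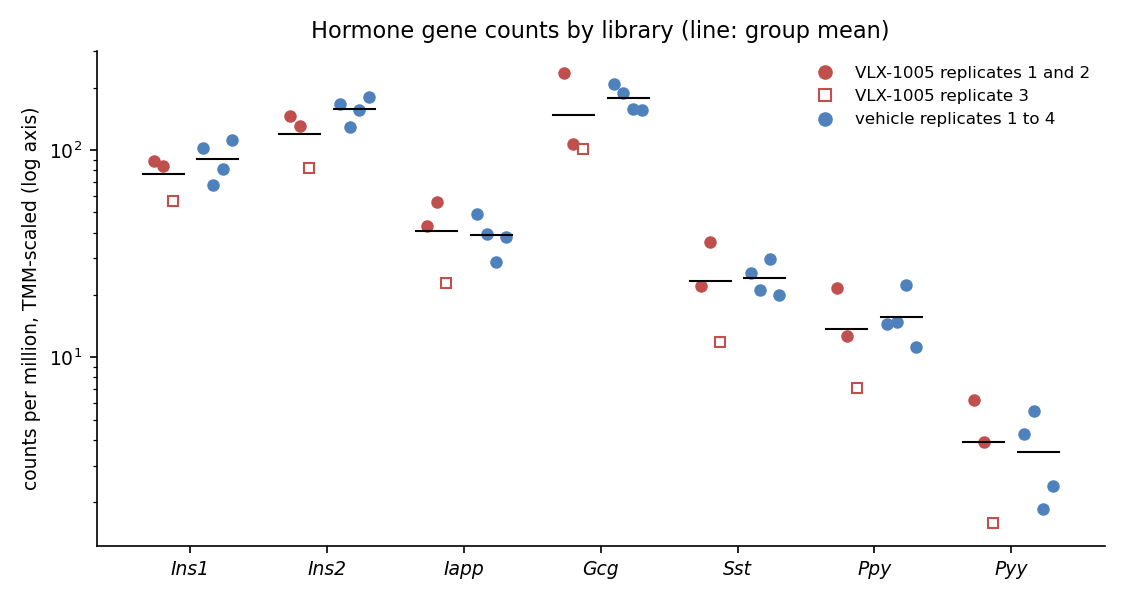
TMM-scaled CPM (log axis) of the 7 hormone genes in each library, with VLX-1005 in red to the left of vehicle in blue, and a line at each group mean. The open square, VLX-1005 replicate 3, is the lowest point of all 7 genes, at 82.2 CPM for Ins2 and 1.58 CPM for Pyy.

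Of the 6 hormone genes tested, 0 were called at an edgeR adjusted p below 0.05, beside 2.37% of all 4218 genes tested (100 genes, 99 of them higher with VLX-1005). At an unadjusted p below 0.05 edgeR also gave 0 of 6, where the share over all genes tested was 18%, and DESeq2 gave 0 of 6 at both thresholds. In other edgeR settings Ins2, Gcg or Sst came below an unadjusted p of 0.05, and none below an adjusted p of 0.05, as given in the closing section. The log2 fold change was negative for 5 of the 6, where 50.9% of all genes tested were negative, and its median was −0.21 over the 6 genes and −0.01 over all genes tested. That count depended on VLX-1005 replicate 3. Without it Iapp (0.33), Sst (0.25) and Ppy (0.14) were positive, and Ins1 (−0.08), Ins2 (−0.21) and Gcg (−0.06) negative. No hormone gene had groups that did not overlap in CPM, against 17.6% of the genes tested. The smallest interval, that of Ins2, allowed a level as low as 0.554 times that of vehicle, and that of Ppy as low as 0.478 times or as high as 1.67 times. A difference of such a size is therefore not shut out by the p values.

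**Figure D2:**
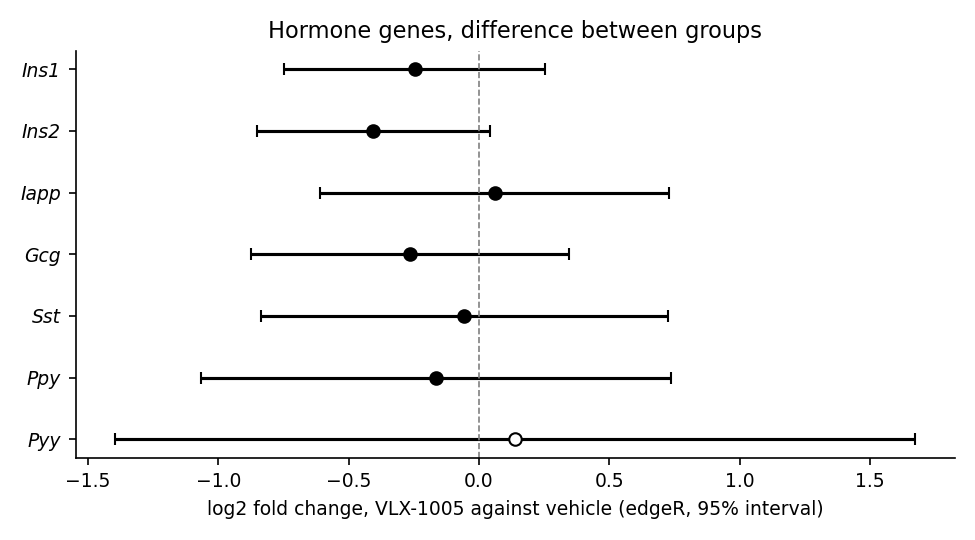
Log2 fold change of each hormone gene, VLX-1005 against vehicle, with its 95% interval from edgeR, and a dashed line at no difference. Every interval crosses the line; the open circle of Pyy, with the widest interval (−1.40 to 1.67), comes from the fit without the filter on low counts.

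All 7 genes had their lowest CPM of all libraries in VLX-1005 replicate 3. Its total of 1278195 counts lay within the range of the other libraries, as did its ribosomal RNA share of 2.15%. The summed level of 12 acinar marker genes, which mark the digestive tissue around islets, was 35.4, 117 and 84.6 CPM with VLX-1005 and 59.4, 103, 100.3 and 35.8 CPM with vehicle, which placed VLX-1005 replicate 3 in the middle. The summed level of 16 housekeeping genes in that library (88.5 CPM) was the lowest with VLX-1005 and within the vehicle range of 76.1 to 113 CPM. Summed over 20 genes of prohormone processing and secretory granules, the level was 1471, 1290 and 861.5 CPM with VLX-1005 and 814, 1114, 1198 and 1142 CPM with vehicle. Here too VLX-1005 replicate 3 was the lowest of its group, but vehicle replicate 1, which was high in Ins1, Ins2 and Gcg, was lower still. Unlike the hormone genes, some of these 20 genes, such as Pcsk1n and Pcsk2, have exons of another gene on the other strand.

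Spread between libraries was set against counting error by the chi-square of the counts within groups per degree of freedom, which is near 1 where counting is the only source of spread. Gcg stood highest at 24.1, followed by Ins2 (7.32), Ins1 (5.58), Iapp (4.99), Sst (3.54), Ppy (2.94) and Pyy (1.37). For the same relative spread this value is larger where there are more counts. The spread of Gcg and of the insulin genes thus exceeded counting error, and that of Pyy was close to it.

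Ratios between hormone genes within a library need no scaling, and 4 were examined. The ratio of Ins2 to Ins1 counts was the steadiest. It was 1.64, 1.56 and 1.44 with VLX-1005 against 1.63, 1.91, 1.93 and 1.61 with vehicle, so that every library had more counts on Ins2 than on Ins1, and the groups overlapped. The means were 1.55 ± 0.0985 with VLX-1005 and 1.77 ± 0.173 with vehicle, a log2 difference of −0.19 (two-sided exact permutation p = 0.171, adjusted over the 4 ratios p = 0.514). Over all libraries the ratio was 1.67 in counts and 1.35 per kb of exon, and the 7 libraries differed by no more than counting error (chi-square per degree of freedom 0.592). Ins2 made up 62.1%, 60.9% and 59.1% of the counts of this pair with VLX-1005 and 62.0%, 65.6%, 65.9% and 61.7% with vehicle.

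Ratios that cross cell types varied more than that of Ins2 to Ins1, and so did Iapp to Ins2, within 1 cell type. Gcg to Ins2, an alpha cell gene to a beta cell gene as counted, was 1.61, 0.821 and 1.23 with VLX-1005 against 1.25, 1.45, 1.02 and 0.872 with vehicle. Counts on Gcg thus outnumbered those on Ins2 in 5 of 7 libraries, and the libraries differed beyond counting error (chi-square per degree of freedom 6.20). Over all libraries this ratio was 1.19 in counts and 1.04 per kb of exon. With so low a share of counts on the hormone genes, whether it matches the ratio of the messages was not tested. The share of Gcg in the pair was 61.7% in VLX-1005 replicate 1 (95% Clopper-Pearson interval 57.5% to 65.8%) and 45.1% in VLX-1005 replicate 2 (38.7% to 51.6%), a gap inside 1 group. The group means of the ratio, 1.22 ± 0.397 with VLX-1005 and 1.15 ± 0.256 with vehicle, differed by 0.06 on the log2 scale (exact permutation p = 0.8286, adjusted p = 0.8286). This difference turned to −0.17 without VLX-1005 replicate 1.

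Iapp to Ins2, 2 messages of the beta cell, was 0.295, 0.433 and 0.279 with VLX-1005 against 0.294, 0.301, 0.184 and 0.212 with vehicle. VLX-1005 replicate 2 was the highest, and the other 2 VLX-1005 libraries lay within the vehicle range. Here too the libraries differed beyond counting error (chi-square per degree of freedom 2.66). Among vehicle libraries the SD of the log2 ratio was 0.346, near that of Gcg to Ins2 (0.324) and of Sst to Gcg (0.327). The means were 0.336 ± 0.0846 with VLX-1005 and 0.248 ± 0.0585 with vehicle, a log2 difference of 0.44 (exact permutation p = 0.257, adjusted p = 0.514). Sst to Gcg was 0.0944, 0.336 and 0.117 with VLX-1005 against 0.121, 0.112, 0.187 and 0.127 with vehicle. VLX-1005 replicate 2, with the most Sst and little Gcg, stood alone. The log2 difference was 0.21 (exact permutation p = 0.800, adjusted p = 0.8286), and −0.34 without that library. The VLX-1005 libraries therefore held both ends of the Gcg to Ins2 and of the Sst to Gcg ratio.

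**Figure D3:**
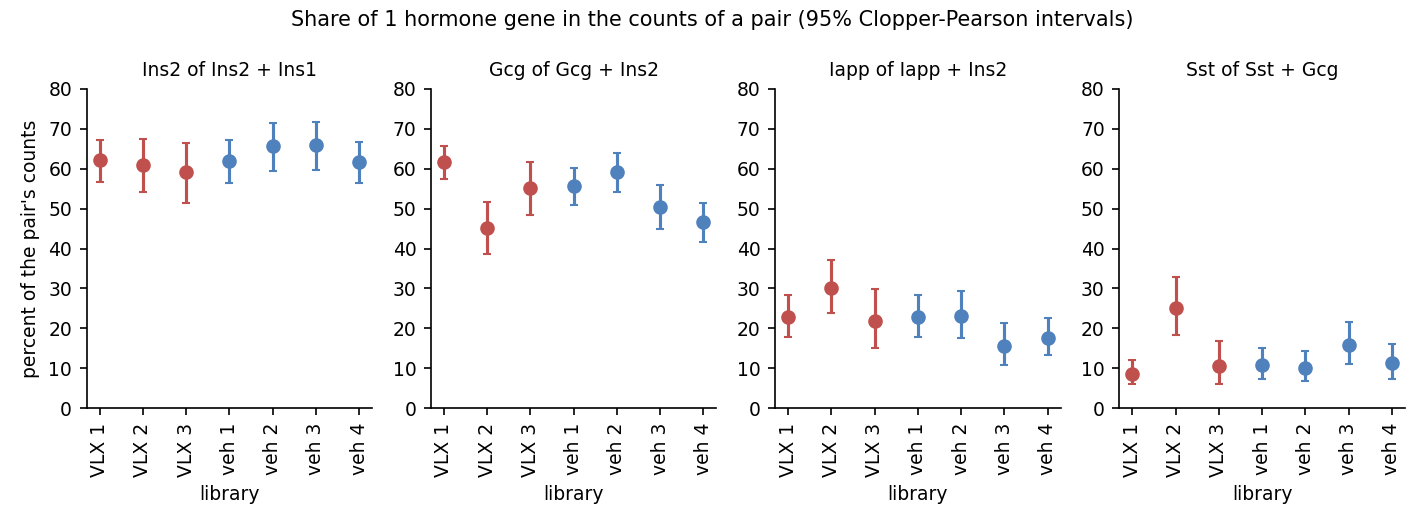
Percent of the counts of a pair of hormone genes that fell on the first gene, by library, with 95% Clopper-Pearson intervals, VLX-1005 (VLX, red) to the left of vehicle (veh, blue). Ins2 of Ins2 plus Ins1 stays between 59.1% and 65.9%, while Gcg of Gcg plus Ins2 runs from 45.1% to 61.7%.

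Covariation over the 7 libraries was examined for the 6 hormone genes with a median of at least 10 counts, which gave 15 pairs on log2 CPM. Ins1 and Ins2 had the highest Pearson r, 0.913 (exact permutation p = 0.00238, adjusted over 15 pairs p = 0.0357), with a Spearman rho of 0.893 (exact permutation p = 0.0123, adjusted p = 0.185). With the group means removed r was 0.929, and without the 2 libraries farthest from the median of Ins1 (VLX-1005 replicate 3 and vehicle replicate 4) it was 0.747. Its adjusted p passed the threshold with all libraries and without vehicle replicate 3, and did not without any of the other 6 libraries in turn (r from 0.858 to 0.947). The values share a library total and the sequence stretches described above, and their part in the correlation was not tested.

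The other 14 pairs were all positive in r as well and did not pass. They ran from 0.168 for Gcg and Sst to 0.702 for Gcg and Ppy, and the median over the 15 pairs was 0.6005. Ins2 and Gcg, the beta cell and alpha cell hormones with the highest levels per kb, had r = 0.635 (exact permutation p = 0.120, adjusted p = 0.327) and rho = 0.357 (exact permutation p = 0.444). For 8 of these 14 pairs the sign depended on VLX-1005 replicate 3, the library in which all 7 genes were lowest. Without it those 8 had a negative r, among them Gcg and Sst (−0.69), Iapp and Ppy (−0.51) and Ins2 and Sst (−0.38), and Ins2 and Gcg had 0.246, while Ins1 and Ins2 had 0.858. Without the 2 libraries farthest from the median of a pair's first gene, 9 of 15 stayed positive.

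**Figure D4:**
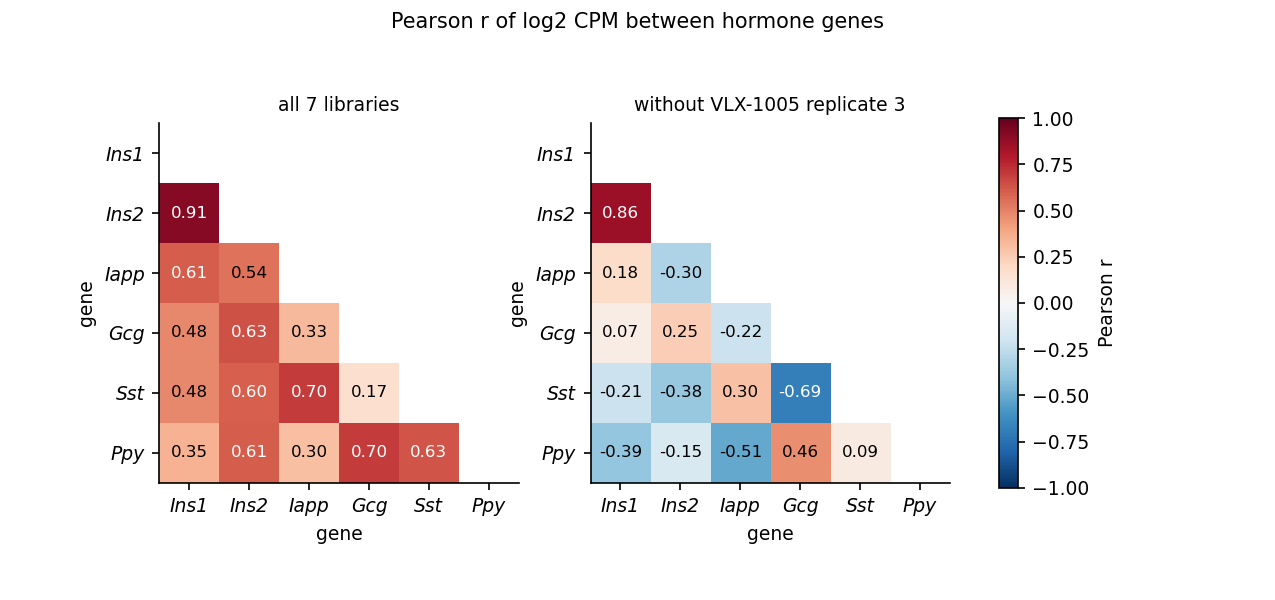
Pearson r of log2 CPM for each pair of 6 hormone genes over all 7 libraries (left) and without VLX-1005 replicate 3 (right), with red for positive and blue for negative values. Ins1 and Ins2 stay at 0.91 and 0.86, while 8 of the other 14 pairs have a negative r on the right.

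Genes most like each hormone gene over the 7 libraries were found by Pearson r of log2 CPM among 3111 tested genes with a mean of at least 20 counts, as a description of so few points. For both insulin genes the first was Deptor, which encodes an inhibitor of mTOR (r = 0.990 with Ins1 and 0.956 with Ins2) and whose exons overlap those of Gm9920 on the other strand. For Ins1 it was followed by A830035A12Rik (0.969, opposite the helicase gene Helz), and for Ins2 by Gm44313 (0.942) and Gm15917 (0.927, opposite the corepressor gene Tle2). Ins2 itself came 8th for Ins1, and Ins1 came 6th for Ins2. Iapp was closest to Ctcf, a chromatin insulator protein gene (0.948), Gm42917 (0.933) and the histone methyltransferase gene Dot1l (0.929). Gcg was closest to Mdh1, which encodes cytosolic malate dehydrogenase (0.953, opposite Wdpcp), Dph5 (0.932) and Pom121 (0.911). Sst was closest to Mir6244 (0.957), Pus10 (0.933) and Fermt3 (0.928), and Ppy to Carmil2 (0.937), Rpl23a (0.919) and Gpr158 (0.903). Of these genes only Dot1l had no exon of another gene on the other strand.

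Genes of the same pathway were read from lists. Prohormones are cut by convertases and stored with granins, and of 20 genes for processing and granules 12 were tested and 0 called (5 positive, 7 negative, median log2 fold change −0.09, against −0.01 over all genes tested). The 4 with the smallest p were the granin gene Chgb (0.47 ± 0.20, edgeR adjusted p = 0.233), the convertase inhibitor gene Pcsk1n (0.70 ± 0.52, opposite Eras), the granule membrane protein gene Ptprn (−0.34 ± 0.27, opposite Gm28294) and the convertase gene Pcsk2 (−0.27 ± 0.27, opposite Pcsk2os1 and Pcsk2os2). Of 16 transcription factors that control hormone genes 4 were tested and 0 called. Their log2 fold changes were 1.42 ± 0.57 for Insm1 (edgeR adjusted p = 0.213), −0.75 ± 0.38 for Rfx6 (0.325), 0.14 for Pax6 and −0.17 for Nkx2-2. Of 16 receptors for these and related hormones only the somatostatin receptor gene Sstr1 was tested (1.07 ± 0.52, edgeR adjusted p = 0.301). None of 23 other peptide hormone genes passed the filter on low counts, and 10 of them had 0 counts in every library. Of 16 housekeeping genes 4 were tested and 0 called.

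Markers of other cells in or around islets were summed as counted. Acinar markers reached 117 CPM with VLX-1005 and 103 CPM with vehicle, with Amy2a1 and Amy2a2 at 0 throughout. Duct markers summed to 18.5 to 26.4 CPM with VLX-1005 and 13.5 to 19.5 CPM with vehicle, with each VLX-1005 library but replicate 2 above all vehicle libraries. These sums were 38, 19 and 28 counts with VLX-1005 and 19, 22, 21 and 17 counts with vehicle. Of the 6 duct markers only Spp1 passed the filter on low counts (log2 fold change 0.42 ± 0.41, edgeR adjusted p = 0.622). Stellate and fibroblast markers summed to 5.55 to 10.3 CPM with VLX-1005 and 1.70 to 7.05 CPM with vehicle, and endothelial markers to 3.95 to 7.63 CPM with VLX-1005 and 0.928 to 9.33 CPM with vehicle. No marker in either of these lists passed the filter on low counts. T cell markers summed to at most 0.973 CPM with VLX-1005 and 3.39 CPM with vehicle. That was 1 count in each VLX-1005 library and in vehicle replicates 2, 3 and 4, and 4 counts in vehicle replicate 1. So few counts cannot compare the groups. Macrophage and dendritic markers summed to 275 to 315 CPM with VLX-1005 and 249 to 320 CPM with vehicle, with Adgre1 at 0. Of these 6 genes only Csf1r passed the filter on low counts, and its exons overlap those of Hmgxb3 on the other strand. That sum is therefore not a measure of macrophage content. The part of all these markers in the hormone gene values was not tested.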

How the data were processed

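Polyadenylated islet RNA was sequenced (Illumina NovaSeq). The table the authors deposited holds unnormalized counts per Ensembl gene. HISAT2 aligned the reads to mm10 and HTSeq counted them in Galaxy, while the submitters' processing notes also name Trimmomatic, FastQC and DESeq2. Versions, strand setting and annotation release: not given in the sources used here. All 7 libraries were used, and 48058 of the 48440 genes matched GENCODE M21.

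Groups were tested by edgeR 4.0.16 (quasi-likelihood, R 4.3.3) with TMM factors, its default filter on low counts (4218 genes kept), robust dispersion, no covariate and Benjamini-Hochberg adjustment over the genes kept, called at 0.05. Log2 CPM used a prior count of 2, and 0.5 was added to each count of a ratio before the log. Ratios and correlations were tested by exact permutation (scipy 1.17.1). Steps were tested on simulated data. Alternatives were DESeq2 1.42.0, other scaling, other filters, the ribosomal RNA share as a covariate, the replicate number as a block, and omission of each library.

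The text names the 7 members, the 3 genes most like each and up to 4 genes of each list by smallest p, and the values of a few items are not reported here. The members and lists were chosen with earlier results of these data known.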

Additional observations from a re-analysis of the deposited data

How the results depend on the processing

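In every one of 14 other settings, 0 hormone genes were called. Ins1, Ins2 and Gcg kept a negative log2 fold change in all 14 (Ins2 from −0.59 to −0.21 and Gcg from −0.78 to −0.06 with 1 library left out). With the ribosomal RNA share as a covariate the values were −0.65 for Ins1, −0.83 for Ins2, −0.62 for Iapp, −0.14 for Gcg, −1.05 for Sst and −0.50 for Ppy. At an unadjusted p below 0.05 edgeR gave 0 hormone genes at its default filter, 1 (Ins2) with all genes kept, 1 (Ins2) at the 1 CPM minimum, 2 (Ins2 and Sst) with the covariate and 2 (Gcg and Ins2) without VLX-1005 replicate 1. Their edgeR adjusted p lay between 0.0573 and 0.775. Iapp ran from −0.23 to 0.33 with 1 library left out. Sst ran from −0.48 to 0.25 and Ppy from −0.68 to 0.14 with 1 library left out. Over all genes, 100 were called by edgeR, against 263 with all genes kept, 164 with a minimum of 1 CPM in 3 libraries, 199 with DESeq2, 0 with the ribosomal RNA share as a covariate (260 at an unadjusted p below 0.05) and 14 to 203 with 1 library left out (without vehicle replicate 1 and without VLX-1005 replicate 3). With the replicate number as a block 19 were called. Deviations of libraries with the same number had correlations of −0.03, −0.02 and 0.09, within the −0.11 to 0.11 of libraries with different numbers. So few values cannot show whether the numbers pair libraries, and the labels do not say. The log2 difference of the Gcg to Ins2 ratio was −0.061 with the replicate block and ran from −0.17 to 0.32 with 1 library left out, and that of Sst to Gcg ran from −0.34 to 0.57. The median hormone share was 0.0457% of all counts and 0.103% of protein-coding counts.

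Of 15 pairs of hormone genes 1 passed, against 0 without the 2 libraries farthest from the median and 0 to 2 with 1 library left out. The second pair was Iapp and Sst without vehicle replicate 3 (r = 0.98, exact permutation adjusted p = 0.0104). Without the 2 farthest libraries, too few remained for a pair to pass alone after adjustment over 15 pairs, whatever its r. That 0 therefore does not show that a correlation was lost. Ins1 and Ins2 had r = 0.747 without the 2 farthest libraries and 0.858 to 0.947 with 1 left out. Without the 2 farthest libraries r was −0.012 for Ins1 and Ppy, −0.25 for Ins2 and Iapp, −0.067 for Ins2 and Sst, −0.44 for Iapp and Sst, −0.39 for Iapp and Ppy and −0.67 for Gcg and Sst. With 1 library left out r ran from −0.21 to 0.71 for Ins1 and Sst, from −0.39 to 0.63 for Ins1 and Ppy, from −0.30 to 0.72 for Ins2 and Iapp, from −0.38 to 0.82 for Ins2 and Sst, from −0.15 to 0.84 for Ins2 and Ppy, from −0.22 to 0.90 for Iapp and Gcg, from −0.51 to 0.67 for Iapp and Ppy and from −0.69 to 0.72 for Gcg and Sst. The lowest of each came without VLX-1005 replicate 3. The cause was not tested. With 1 library left out the exact test of a ratio cannot go below p = 0.1 (3 against 3) or 0.0667 (2 against 4). Pyy, at 2 to 9 counts per library, was limited by depth.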
